A study of Mus musculus with 15 samples.

Results

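The 39 genes described here encode the enzymes and regulators by which cells make and recycle glutathione, run the thioredoxin cycle and remove superoxide and peroxides. They were taken as a fixed list of gene names, and all 39 were found among the 20453 named genes of the count table, each read from the RefSeq transcript on which its mean count was largest. The RNA came from marrow of C57BL/6 mice, sorted for a study of MLL-AF9, a human fusion gene that drives acute myeloid leukaemia. The 14 libraries compared fell into 4 groups named wtGMP (4 libraries), LTearly (4), LTlate (3) and BMTGMP (3).

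The group names are not spelled out in the labels. GMP and LT match the sorting text's granulocyte-macrophage progenitors and long-term haematopoietic stem cells, wt was read as wild type, and the other 3 groups were read as MLL-AF9 groups from the study's title. What early, late and BMT stand for is not stated. Per the labels the fusion was targeted into A2Lox-cre cells that were used to make a mouse line, which was backcrossed to C57BL/6, and double heterozygous females were used. Ages are not stated. Marrow was depleted of cells carrying Cd5, Cd11b, B220, Gr-1 or Ter119 and sorted with a progenitor gate and a stem cell gate, but the gate of each library is not given. Titles of MLL-AF9 libraries carry codes that are not explained, and some codes recur between LTearly and LTlate or within BMTGMP. Nothing says that replicates are separate animals, so p-values measure the spread between these samples, which may be technical. A further library, titled LTearly but with a column named LTlate, was kept out of all groups.

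Glutathione is a small thiol that peroxidases use to reduce hydrogen peroxide and lipid peroxides, after which glutathione reductase restores it with NADPH. Thioredoxin and the peroxiredoxins form a parallel cycle, again fed by NADPH, and glutaredoxins link both. The transcription factor NRF2 (gene Nfe2l2) switches on many of these genes once its inhibitor KEAP1 lets go of it. Myeloid cells that mature towards neutrophils meet large amounts of oxidants, since the phagocyte oxidase makes superoxide.

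Depth ran from 2469869 to 15093477 counts on named genes per library, and the LTlate libraries (11569819 to 15093477) were deeper than those of wtGMP (2469869 to 6979138). All 10 progenitor markers were detected in every group, but their summed level was 19497 to 22836 CPM (counts relative to TMM-scaled library size) in wtGMP, against 1553 to 6810 in LTearly, 1712 to 2165 in LTlate and 8182 to 12007 in BMTGMP. Most of that sum was Mpo (17487 CPM on average in wtGMP). Of the 10 markers 1 rose and 7 fell in LTearly, 3 rose and 4 fell in LTlate, and 1 rose and 1 fell in BMTGMP, with Cebpe rising in all 3. The 12 late neutrophil markers summed to 58.4 to 154 CPM in wtGMP, against 13021 to 26321 in LTearly, 5253 to 9439 in LTlate and 1433 to 7049 in BMTGMP. The stem cell marker Slamf1 had no counts in wtGMP or LTlate, and the 9 stem cell markers summed to at most 65.8 CPM in any library of a group. Most of the wtGMP sum was Mllt3, which averaged 32.2 CPM there and 7.28, 7.07 and 5.98 in LTearly, LTlate and BMTGMP. Mecom went the other way in LTearly, averaging 0.95 CPM in wtGMP, then 27.4, 1.91 and 0.558. Of the 5 stem cell markers tested, 0 rose and 1 fell in each group against wtGMP. The progenitor and neutrophil sums differed from wtGMP in each of the 3 other groups without overlap, and their part in the results was not tested. In bulk samples fewer cells of a type and less RNA per cell cannot be told apart.

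LTearly cells held more glutathione reductase, peroxiredoxin 5, thioredoxin-interacting protein, glutaredoxin 1 and haem oxygenase 1 mRNA than wtGMP, and less superoxide dismutase 1, peroxiredoxin 2, glutaredoxin 3 and glutathione transferase omega 1 mRNA. Of the 37 members that passed the low-count filter, 7 rose and 5 fell in LTearly against wtGMP, with edgeR's quasi-likelihood fit and an adjusted p (Benjamini-Hochberg) under 0.05. In that comparison 20.1% of all genes tested were called, 11.2% higher and 8.96% lower. In LTlate 6 members rose and 2 fell, where 10.8% of all genes were called, 7.5% higher and 3.26% lower. In BMTGMP 3 rose and 1 fell, where 6.56% of all genes were called, 4.4% higher and 2.16% lower. Members whose libraries all lay above those of wtGMP numbered 7, 6 and 4 in LTearly, LTlate and BMTGMP (11.5%, 15.1% and 10.9% of all genes), and members all below numbered 5, 7 and 6 (10.3%, 10.9% and 8.32%). The remaining members, Gpx7 and Aldh1a1, had too few counts to be tested.

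These 3 comparisons share the wtGMP libraries. The members rising in all 3 were Gsr, Gpx3 and Prdx5, while Txnip, Glrx and Hmox1 rose in both LT groups and Nfe2l2 in LTearly. On the falling side, Glrx3 and Gsto1 fell in both LT groups, Prdx1 in LTearly and BMTGMP, and Prdx2 and Sod1 in LTearly. The other 25 tested members passed in none of the 3. How many of all genes tested rose in all 3, or passed in none, was not counted. The members' median log2 change was -0.32 in LTearly (0.22 over all genes tested), -0.26 in LTlate (0.00) and -0.25 in BMTGMP (0.07).

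**Figure D1:**
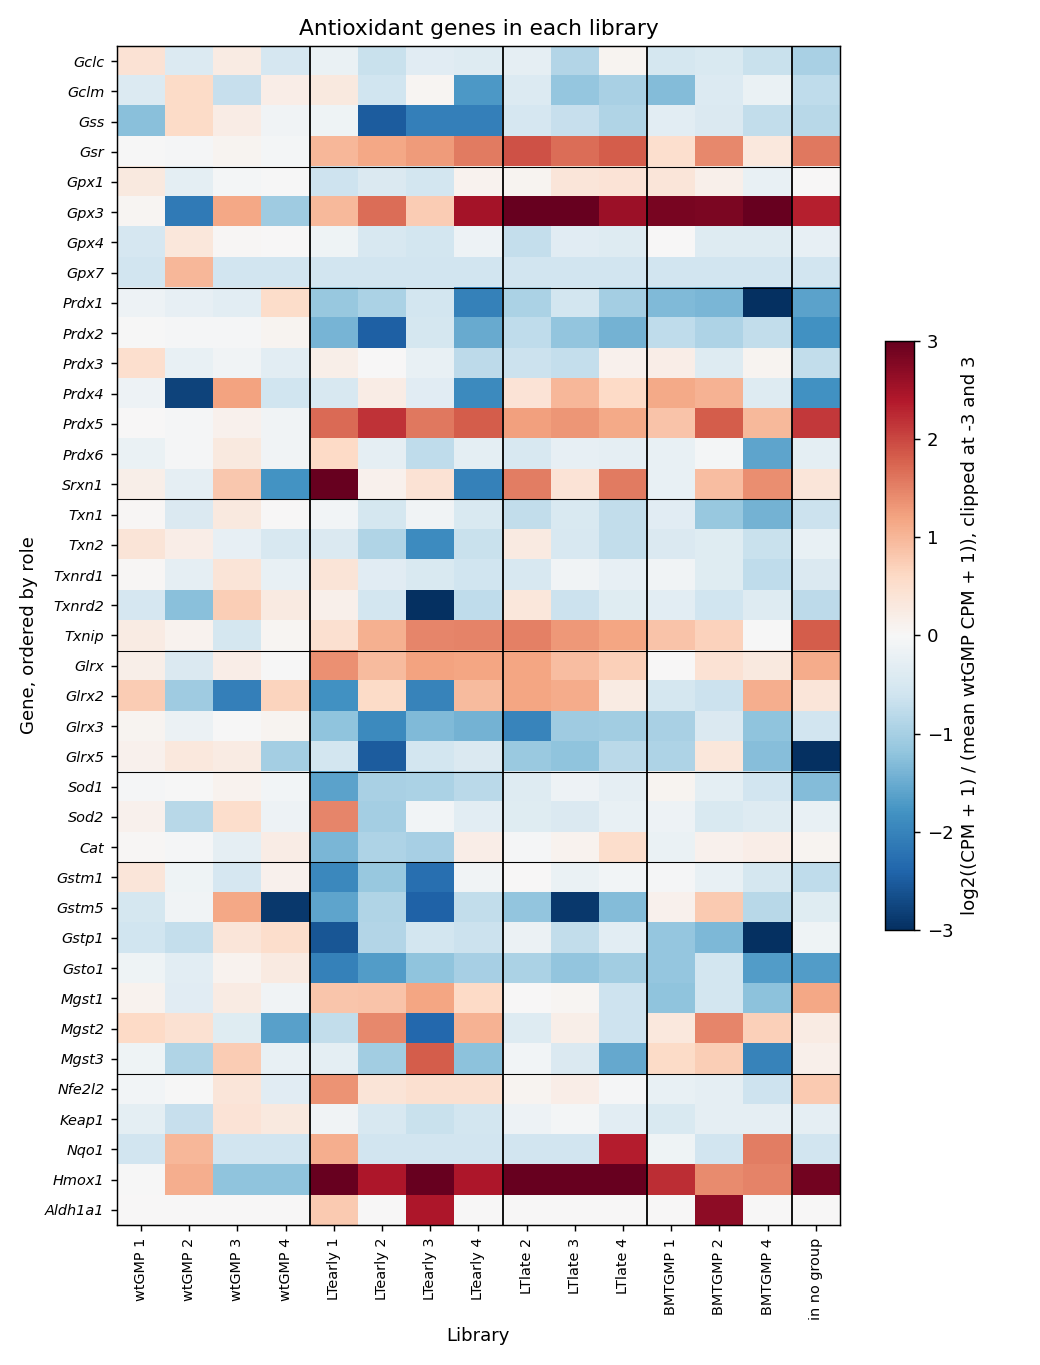
Each row is a member gene and each column a library, coloured by log2((CPM + 1) / (mean wtGMP CPM + 1)), clipped at -3 and 3. Gsr, Prdx5 and Hmox1 are red in all 10 MLL-AF9 libraries, while Prdx1, Prdx2, Glrx3 and Gsto1 are blue in all 10.

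Among the genes of glutathione synthesis and recycling, the recycling enzyme stood apart from the synthetic ones. Gsr, which encodes glutathione reductase, stood at 320, 315, 340 and 309 CPM in the wtGMP libraries, 640, 718, 775 and 941 in LTearly, 1216, 1028 and 1132 in LTlate, then 452, 867 and 401 in BMTGMP. All 10 MLL-AF9 libraries exceeded wtGMP, and the LTlate libraries exceeded all of LTearly and BMTGMP. It rose by 1.26 ± 0.19 (log2 fold change ± SE, adjusted p = 1.86e-05) in LTearly, 1.81 ± 0.20 (adjusted p = 3.56e-07) in LTlate and 0.84 ± 0.20 (adjusted p = 0.00743) in BMTGMP. The BMTGMP call rested on its replicate 2, without which the change was 0.40 (adjusted p = 0.28). LTearly differed from LTlate by -0.55 ± 0.20, which did not pass (adjusted p = 0.302).

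Gclc and Gclm encode the catalytic and modifier subunits of glutamate-cysteine ligase, which sets the rate of glutathione synthesis, and Gss encodes glutathione synthetase. None of the 3 was called in any comparison. Gclc averaged 49 ± 15.9 CPM (mean ± SD, here and below over 4 wtGMP, 4 LTearly, 3 LTlate and 3 BMTGMP libraries) in wtGMP and 37.1 ± 5.14 in LTearly, then 39.6 ± 13 in LTlate, then 33.3 ± 2.51 in BMTGMP. Gss showed 6.45, 25.6, 19.7 and 15.5 CPM in wtGMP and 15.2, 2.13, 3.3 and 3.28 in LTearly (log2 change -1.48 ± 0.62, adjusted p = 0.0905). LTearly replicate 1 alone was near wtGMP there, and without it Gss fell by 2.53 (adjusted p = 0.00553). Exons of Gss overlap those of Acss2 on the other strand. Whether counting used strand is not stated, so reads in the overlap cannot be told apart.

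The glutathione peroxidases reduce peroxides with glutathione. Gpx1, the abundant cytosolic form, had the highest level of all members per kilobase of transcript in each group, 577 CPM per kb in wtGMP and 455 to 706 in the others. Gpx3 encodes the secreted peroxidase and was at the other end in wtGMP, rank 33 of 39 by the same measure at 3.16 CPM per kb. It reached rank 13 in both LTlate (33.0 CPM per kb) and BMTGMP (27.6).

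Gpx3 read 5.31, 0.394, 12.6 and 1.9 CPM in wtGMP, against 10.8, 18.4, 9.17 and 33.1 in LTearly, 69.1, 54.4 and 34.6 in LTlate, then 42.2, 41.6 and 48.2 in BMTGMP. LTlate and BMTGMP lay above both wtGMP and LTearly without overlap, while LTearly overlapped wtGMP. The rise was 3.31 ± 0.64 in LTlate (adjusted p = 0.00215), 3.05 ± 0.64 in BMTGMP (adjusted p = 0.00572) and 1.77 ± 0.60 in LTearly (adjusted p = 0.0462). The LTearly call was lost under 13 of 19 alternatives, among them leaving out wtGMP replicate 1, 2 or 4 or LTearly replicate 2 or 4 (adjusted p = 0.0529 to 0.132). LTearly differed from LTlate by -1.54 ± 0.59 and from BMTGMP by -1.28 ± 0.60, neither of which passed (adjusted p = 0.361 and 0.243).

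Gpx1 itself read 401, 460, 425 and 663 CPM in LTearly, against 507 to 762 in wtGMP, 650 to 826 in LTlate and 533 to 802 in BMTGMP. Of the LTearly libraries 3 were below all other groups, and replicate 4 was not. It was not called in LTearly (-0.34 ± 0.18, adjusted p = 0.173), and without replicate 4 it fell by 0.55 (adjusted p = 0.0224). Gpx4, which protects membranes from lipid peroxides, averaged 47.2 ± 11.2 CPM in wtGMP and 33.8 to 39.8 in the other groups and was not called. Gpx7, an endoplasmic reticulum form, had 5 counts in 1 wtGMP library and none elsewhere.

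**Figure D2:**
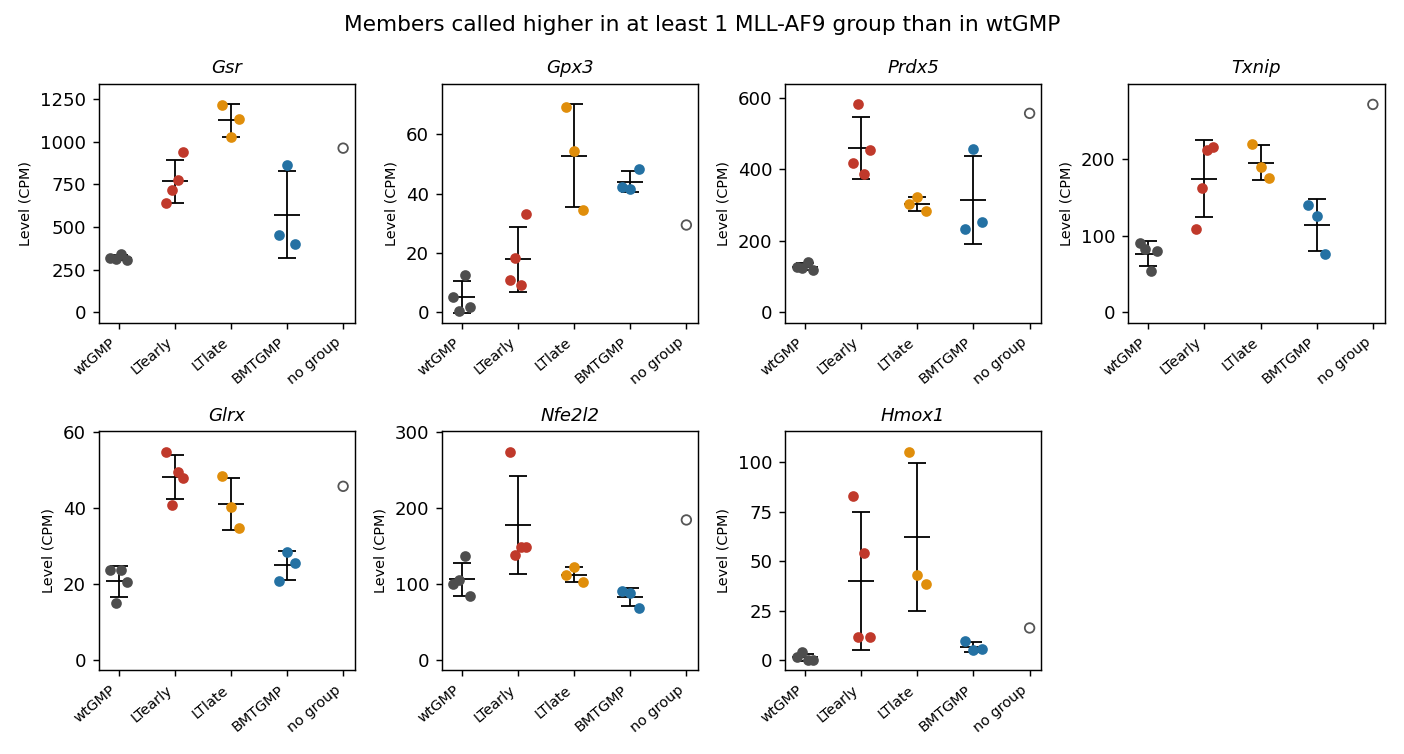
Levels in CPM of the 7 members that rose in at least 1 MLL-AF9 group (points are libraries, bars the mean ± SD, the open circle the library in no group). Gsr lies at 309 to 340 CPM in wtGMP and at 401 to 1216 in the other groups, and Hmox1 at 0 to 3.94 against 5.19 to 105.

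Peroxiredoxins reduce hydrogen peroxide with a reactive cysteine, and members of the family moved in opposite directions. Prdx5, the form found in mitochondria, peroxisomes and cytosol, stood at 128, 125, 141 and 118 CPM in wtGMP, against 417, 582, 386 and 454 in LTearly, 304, 322 and 284 in LTlate, then 234, 456 and 253 in BMTGMP. The groups did not overlap wtGMP, and LTearly lay above LTlate in every library. Prdx5 rose by 1.84 ± 0.19 in LTearly (adjusted p = 7.48e-08), 1.24 ± 0.20 in LTlate (adjusted p = 8.89e-05) and 1.30 ± 0.20 in BMTGMP (adjusted p = 7.68e-05). These 3 calls held under every alternative tried. The difference between LTearly and LTlate was 0.60 ± 0.20 (adjusted p = 0.252). Exons of Prdx5 overlap those of Trmt112 on the other strand.

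Prdx1, a cytosolic peroxiredoxin and NRF2 target, read 58.4, 55.1, 52.3 and 96.3 CPM in wtGMP, against 29.4, 33.6, 44.4 and 15.2 in LTearly, 33.4, 44.5 and 31.9 in LTlate, then 25.6, 24.6 and 5.02 in BMTGMP. All 10 MLL-AF9 libraries were below all 4 of wtGMP. The fall passed in BMTGMP (-1.81 ± 0.44, adjusted p = 0.00979) and in LTearly (-1.11 ± 0.39, adjusted p = 0.0466), and LTlate differed by -0.84 ± 0.42 (adjusted p = 0.221). The LTearly call was lost under 11 of 19 alternatives, among them leaving out any 1 wtGMP library or LTearly replicate 1, 2 or 4 (adjusted p = 0.0587 to 0.161). Of its values 78.6% were not whole numbers, as when a read with several hits is divided, so part of its reads may belong to near-identical copies.

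Prdx2, the peroxiredoxin that is abundant in red cells, read 45.3, 44.1, 44.2 and 48.1 CPM in wtGMP, against 16.6, 7.46, 31.2 and 15.2 in LTearly, 26.4, 19.5 and 16.3 in LTlate, then 26.4, 23.3 and 26.6 in BMTGMP. No MLL-AF9 library reached the lowest wtGMP value. It fell by 1.38 in LTearly (SE 0.35, adjusted p = 0.00541), whereas LTlate (-1.13 ± 0.38, adjusted p = 0.0537) and BMTGMP (-0.84 ± 0.38, adjusted p = 0.219) did not pass. The LTlate difference passed under 4 alternatives, DESeq2 among them (adjusted p = 0.0293). The 11 erythroid markers found in the table summed to 101 to 180 CPM in wtGMP and 51.2 to 96.9 in LTearly. Most of that was Tfrc (135 and 55.6 CPM on average), with Hba-a1 at 0.844 and 1.05 CPM. The part of these cells in the fall was not tested. Exons of Prdx2 overlap Junb and Rnaseh2a on the other strand, and 42.9% of its values were not whole.

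The other peroxiredoxins were not called. Mitochondrial Prdx3 averaged 12.1 to 15.7 CPM over the groups and Prdx6, which also acts on phospholipids, 72.9 to 102. Prdx4, of the endoplasmic reticulum, averaged 4.02 CPM in LTearly and 5.81 to 10.4 in the rest. Srxn1 encodes sulfiredoxin, which restores overoxidized peroxiredoxins. It read 54.3 CPM in LTearly replicate 1 but 4, 5.14 and 0.117 in the other LTearly libraries, against 0.317 to 6.95 in wtGMP (2.13 ± 1.13, adjusted p = 0.204). Over the alternatives this difference ran from -0.28 to 2.94, and it passed without LTearly replicate 4 (adjusted p = 0.0396).

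Within the thioredoxin system, the inhibitor rose while thioredoxins and their reductases were not called. Txnip binds thioredoxin and blocks it, and it also limits glucose uptake. Its level was 90.5, 82.3, 53.2 and 80.4 CPM in wtGMP, against 108, 162, 212 and 215 in LTearly, 220, 190 and 175 in LTlate, then 140, 125 and 76 in BMTGMP. Both LT groups lay above wtGMP in all libraries, and BMTGMP overlapped it. Txnip rose by 1.19 ± 0.23 in LTearly (adjusted p = 0.000399) and 1.35 ± 0.24 in LTlate (adjusted p = 0.000338), and these calls held under every alternative. In BMTGMP the difference was 0.57 ± 0.24 (adjusted p = 0.189). Exons of Txnip overlap those of the antisense gene Gm15441 on the other strand.

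Cytosolic thioredoxin, Txn1, averaged 63.4 ± 12.7 CPM in wtGMP, against 51.9 ± 8.45 in LTearly, 40.2 ± 4.84 in LTlate, then 33.7 ± 14.1 in BMTGMP. BMTGMP came nearest to a call (-0.91 ± 0.29, adjusted p = 0.0604), and DESeq2 called it (adjusted p = 0.0236), as did edgeR without wtGMP replicate 2 (adjusted p = 0.0443) or BMTGMP replicate 1 (adjusted p = 0.014). Its reductase Txnrd1 averaged 258 ± 55.7 CPM in wtGMP and 197 to 225 in the other groups. Mitochondrial thioredoxin (Txn2) averaged 28.4 CPM in wtGMP and 14.9 in LTearly (-0.92 ± 0.39, adjusted p = 0.0962). Its reductase Txnrd2 was at 6.29 to 10.7 CPM on average.

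Glutaredoxins split as the peroxiredoxins did. Glrx, the cytosolic enzyme that removes glutathione from protein thiols, read 23.7, 15, 23.8 and 20.6 CPM in wtGMP, against 54.8, 40.8, 49.5 and 48.1 in LTearly, 48.5, 40.3 and 34.8 in LTlate, then 20.9, 28.5 and 25.5 in BMTGMP. All 7 LT libraries were above all wtGMP and BMTGMP libraries. It rose by 1.21 ± 0.29 in LTearly (adjusted p = 0.00265) and 0.98 ± 0.30 in LTlate (adjusted p = 0.0317). The LTlate call was lost under 7 of 17 alternatives, among them leaving out wtGMP replicate 2 or 4 or LTlate replicate 2 or 3 (adjusted p = 0.0658 to 0.192). Thinning every library to 1 depth, another of the 7, gave the highest adjusted p (0.381). Part of the Glrx values were not whole, as when a read with several hits is divided, and no alternative left out such reads. LTearly and BMTGMP differed by 0.95 ± 0.31 (adjusted p = 0.0629), a difference that DESeq2 called (adjusted p = 0.00417).

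Glrx3, a glutaredoxin that carries iron-sulfur clusters in the cytosol, read 106, 87.8, 99.2 and 105 CPM in wtGMP, against 42.3, 25.8, 39.3 and 36.9 in LTearly, 24.6, 47 and 47.9 in LTlate, then 49.9, 73 and 42.7 in BMTGMP. No MLL-AF9 library reached wtGMP, and every LTearly library was below every BMTGMP library. LTearly differed from BMTGMP by -0.61 ± 0.27, which did not pass (adjusted p = 0.204). Glrx3 fell by 1.46 in LTearly (SE 0.26, adjusted p = 0.000146) and 1.32 in LTlate (SE 0.28, adjusted p = 0.00193), calls that held under every alternative. Of the Glrx3 values 57.1% were not whole, and no alternative left out divided reads. BMTGMP differed by -0.85 ± 0.28 (adjusted p = 0.0675), which passed by DESeq2 (adjusted p = 0.0343), in a fit of only those 2 groups (0.0192) and without BMTGMP replicate 2 (0.0398). The mitochondrial glutaredoxins were not called: Glrx2 averaged 5.87 to 12.1 CPM and Glrx5, needed for iron-sulfur clusters and haem synthesis, 15.1 CPM in wtGMP and 6.84 to 10.8 in the rest.

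Superoxide dismutases turn superoxide into hydrogen peroxide, which catalase breaks down. Sod1, the copper-zinc form, stood at 297, 299, 327 and 284 CPM in wtGMP, against 98.6, 153, 157 and 171 in LTearly, 232, 271 and 251 in LTlate, then 320, 248 and 203 in BMTGMP. The 4 LTearly libraries were below all other 10. Against wtGMP Sod1 fell by 1.06 (SE 0.18, adjusted p = 9.08e-05) in LTearly under every alternative, while LTlate (-0.26 ± 0.19, adjusted p = 0.44) and BMTGMP (-0.23 ± 0.19, adjusted p = 0.584) were not called. As with Glrx3, part of the Sod1 values were not whole, and no alternative left out divided reads. LTearly was also lower than BMTGMP (-0.83 ± 0.19, adjusted p = 0.0083), and without BMTGMP replicate 1 that call was lost (adjusted p = 0.0784). Against LTlate the difference was -0.80 ± 0.19 (adjusted p = 0.0693), which 7 of 18 alternatives called.

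Sod2, the manganese form of mitochondria, was not called. It stood at 222 CPM in LTearly replicate 1, while the other 13 libraries ran from 39.2 to 116. Of the Sod2 values 71.4% were not whole. Cat (catalase) read 25.9, 35.4, 34.1 and 79.4 CPM in LTearly, against 56.8 to 79.8 in wtGMP, 66.4 to 99.4 in LTlate and 59.8 to 79.1 in BMTGMP. Only LTearly replicate 4 lay among the other groups. With it Cat was not called (-0.64 ± 0.28, adjusted p = 0.109), and without it Cat fell by 1.13 (adjusted p = 0.00167). With all libraries and the replicate number as a block Cat was called (adjusted p = 0.0407).

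**Figure D3:**
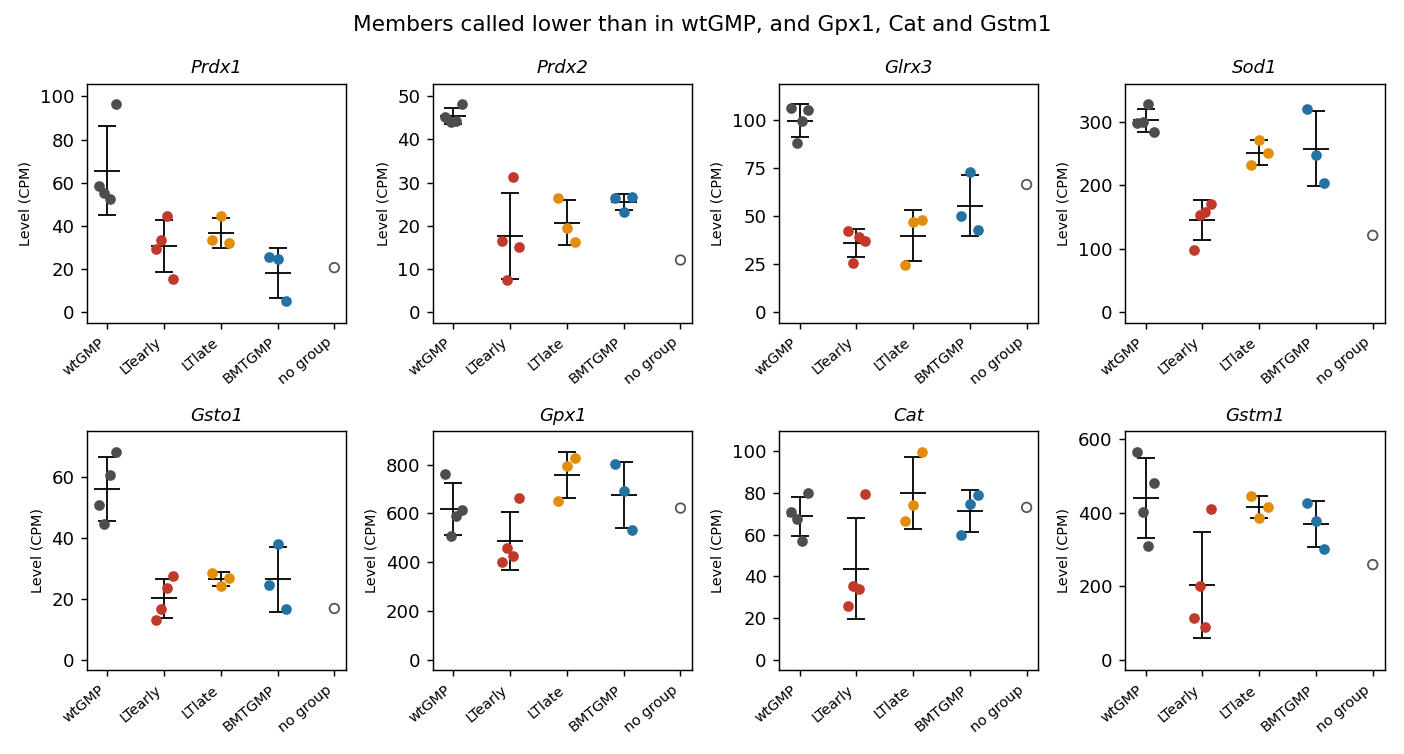
Levels in CPM of the 5 members that fell in at least 1 MLL-AF9 group, with Gpx1, Cat and Gstm1 (points are libraries, bars the mean ± SD, the open circle the library in no group). Sod1 lies at 98.6 to 171 CPM in LTearly and at 203 to 327 in the other groups, while for Gpx1, Cat and Gstm1 LTearly replicate 4 is the highest of its group.

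Glutathione transferases join glutathione to reactive compounds. Gsto1, the omega form that also reduces dehydroascorbate, read 50.9, 44.5, 60.6 and 68.1 CPM in wtGMP, against 13, 16.8, 23.5 and 27.4 in LTearly, 28.6, 24.1 and 26.8 in LTlate, then 24.6, 37.9 and 16.7 in BMTGMP. All 10 MLL-AF9 libraries were below wtGMP. It fell by 1.47 in LTearly (SE 0.32, adjusted p = 0.0013) and 1.08 in LTlate (SE 0.34, adjusted p = 0.0412), and the LTlate call was lost under 9 of 17 alternatives, among them leaving out wtGMP replicate 1, 3 or 4 or any 1 LTlate library (adjusted p = 0.0588 to 0.172). BMTGMP differed by -1.08 ± 0.35 (adjusted p = 0.0583), which passed by DESeq2 (adjusted p = 0.0186), in a fit of only those 2 groups (0.029) and without BMTGMP replicate 2 (0.0324).

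Gstm1, a mu form, was the most abundant transferase at 340 CPM per kb in wtGMP. It read 114, 200, 90.6 and 409 CPM in LTearly, 310 to 564 in wtGMP, 385 to 446 in LTlate and 302 to 426 in BMTGMP. As with Cat, LTearly replicate 4 was the exception. Gstm1 was not called in LTearly (-1.10 ± 0.40, adjusted p = 0.0743) but fell by 1.72 without replicate 4 (adjusted p = 2.69e-05), and with all libraries DESeq2 (adjusted p = 0.00534) and the replicate block (adjusted p = 0.0394) called it. Of its values 85.7% were not whole, so part of its reads may belong to other mu genes and its level is uncertain.

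Mgst1, a membrane-bound form, read 18.6, 13.4, 20.4 and 15.8 CPM in wtGMP, against 31.3, 32, 40.4 and 26.3 in LTearly, 17.3, 17.8 and 10.8 in LTlate, then 6.88, 11.3 and 6.7 in BMTGMP. LTearly lay above and BMTGMP below wtGMP in every library, though neither difference passed (0.92 ± 0.38, adjusted p = 0.0844, and -1.04 ± 0.42, adjusted p = 0.154) except by DESeq2 (adjusted p = 0.0198 and 0.0467). LTearly exceeded BMTGMP by 1.96 ± 0.43 (adjusted p = 0.00493), a call lost after thinning every library to 1 depth (adjusted p = 0.217). The other transferases were low and not called. Gstp1 averaged 3.17 to 12.2 CPM, Mgst2 4.93 to 12.2, Mgst3 2.29 to 5.37 and Gstm5 1.44 to 7.34.

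The regulator NRF2 and its classical targets gave a mixed picture. Nfe2l2 stood at 100, 105, 136 and 83.6 CPM in wtGMP, against 273, 138, 149 and 149 in LTearly, 112, 122 and 103 in LTlate, then 90.7, 87.4 and 68.9 in BMTGMP. All LTearly libraries lay above all others, and replicate 1 was far above its group. Nfe2l2 rose by 0.74 ± 0.22 in LTearly against wtGMP (adjusted p = 0.0153), a call lost without LTearly replicate 1 (0.43, adjusted p = 0.145) or without wtGMP replicate 4 (adjusted p = 0.0669). LTearly also exceeded BMTGMP (1.10 ± 0.24, adjusted p = 0.00483) under every alternative. For Nfe2l2 LTearly differed from LTlate by 0.66 ± 0.24, which did not pass (adjusted p = 0.297). Keap1, which encodes its inhibitor, averaged 59.7 to 81.1 CPM and was not called.

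Hmox1 encodes haem oxygenase 1, which breaks down haem and is induced through NRF2 when the repressor BACH1 leaves its gene. It read 1.29, 3.94, 0 and 0 CPM in wtGMP, against 82.7, 11.5, 54.3 and 11.5 in LTearly, 105, 42.8 and 38.2 in LTlate, then 9.67, 5.19 and 5.44 in BMTGMP. Every MLL-AF9 library was above wtGMP, and every LT library above BMTGMP. The rise was 5.08 ± 1.04 in LTearly and 5.71 ± 1.08 in LTlate (adjusted p = 0.00426 for both), from 19 counts in all of wtGMP. BMTGMP differed by 2.54 ± 1.06 (adjusted p = 0.218). The difference of LTlate from BMTGMP was 3.18 ± 0.99 (adjusted p = 0.181). DESeq2 called it (adjusted p = 0.0123), as did edgeR in a fit of only those 2 groups (adjusted p = 0.00161). LTearly differed from BMTGMP by 2.54 ± 0.94 (adjusted p = 0.155), which DESeq2 called (adjusted p = 0.0192). The 11 monocyte and macrophage markers in the table summed to 546 to 612 CPM in wtGMP, against 678 to 1259 in LTearly, 817 to 1086 in LTlate and 411 to 627 in BMTGMP. Of 10 tested, 4 rose in LTearly, 4 in LTlate and 2 in BMTGMP, and none fell. Adgre1, the F4/80 gene, averaged 13.1, 103, 78.4 and 64.5 CPM in that order, and Ly6c2 139, 91.2, 99.4 and 146. Their part in the Hmox1 result was not tested.

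Nqo1, the quinone reductase often used as an NRF2 readout, averaged 0.492 CPM in wtGMP, against 0.551 in LTearly, 2.23 in LTlate, then 1.24 in BMTGMP. These means rest on 5, 9, 99 and 20 counts in that order, from 1 or 2 libraries a group. All 99 LTlate counts came from replicate 4 (6.68 CPM). Aldh1a1, a retinal dehydrogenase, had no counts in wtGMP or LTlate, 15 in LTearly and 42 in BMTGMP.

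NRF2 binds the antioxidant response element, whose core was searched as TGACNNNGC on both strands in the 250 bases before each RefSeq start (GRCm38.p6, a later build than the mm9 of the counts). Promoters of 35 members were matched by symbol, all but Gclc, Gsr, Hmox1 and Prdx6. The core was found in 7 of the 47 member promoters (14.9%) and in 10.2% of all 32851 promoters of that length. The 4 promoters shown are those with a match whose genes were called in some comparison. They come from a riser in LTearly (Nfe2l2), 2 members that fell in it (Prdx1 and Sod1) and Mgst1, which was higher in LTearly than in BMTGMP. They lie at chr2:75704664-75704913 (minus strand), chr4:116685349-116685598, chr16:90220512-90220761 and chr6:138140277-138140526 (plus strand), and capitals mark the match.
Nfe2l2: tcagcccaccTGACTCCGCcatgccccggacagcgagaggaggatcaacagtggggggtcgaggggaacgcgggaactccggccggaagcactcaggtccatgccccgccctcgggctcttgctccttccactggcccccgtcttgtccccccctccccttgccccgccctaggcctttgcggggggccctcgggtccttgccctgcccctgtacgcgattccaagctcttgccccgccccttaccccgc
Prdx1: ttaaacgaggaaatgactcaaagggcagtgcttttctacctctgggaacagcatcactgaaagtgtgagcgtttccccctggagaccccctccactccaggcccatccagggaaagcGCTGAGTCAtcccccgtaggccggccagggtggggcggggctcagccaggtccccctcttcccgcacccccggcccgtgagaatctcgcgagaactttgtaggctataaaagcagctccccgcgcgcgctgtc
Sod1: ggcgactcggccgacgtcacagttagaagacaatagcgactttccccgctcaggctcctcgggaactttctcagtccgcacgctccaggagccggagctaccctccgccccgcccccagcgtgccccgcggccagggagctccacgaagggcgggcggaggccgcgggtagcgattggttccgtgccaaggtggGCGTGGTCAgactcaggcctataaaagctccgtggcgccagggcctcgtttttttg
Mgst1: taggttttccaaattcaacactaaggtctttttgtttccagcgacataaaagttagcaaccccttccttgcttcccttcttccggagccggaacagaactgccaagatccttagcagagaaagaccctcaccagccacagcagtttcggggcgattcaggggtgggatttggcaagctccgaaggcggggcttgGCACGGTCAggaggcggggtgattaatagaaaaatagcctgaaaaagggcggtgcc
The match begins 240 bases before the start in Nfe2l2, 133 in Prdx1, 56 in Sod1 and 56 in Mgst1. It lies on the gene's own strand in Nfe2l2 and on the opposite strand in the other 3. In Prdx1 it reads TGACTCAGC there, which also holds the AP-1 site TGACTCA. The other matches were in Gclm, Gstm5 and 1 promoter of Txnrd1, whose genes were not called. A match is a run of letters, not a bound site, and variants of the core were not searched.

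**Figure D4:**
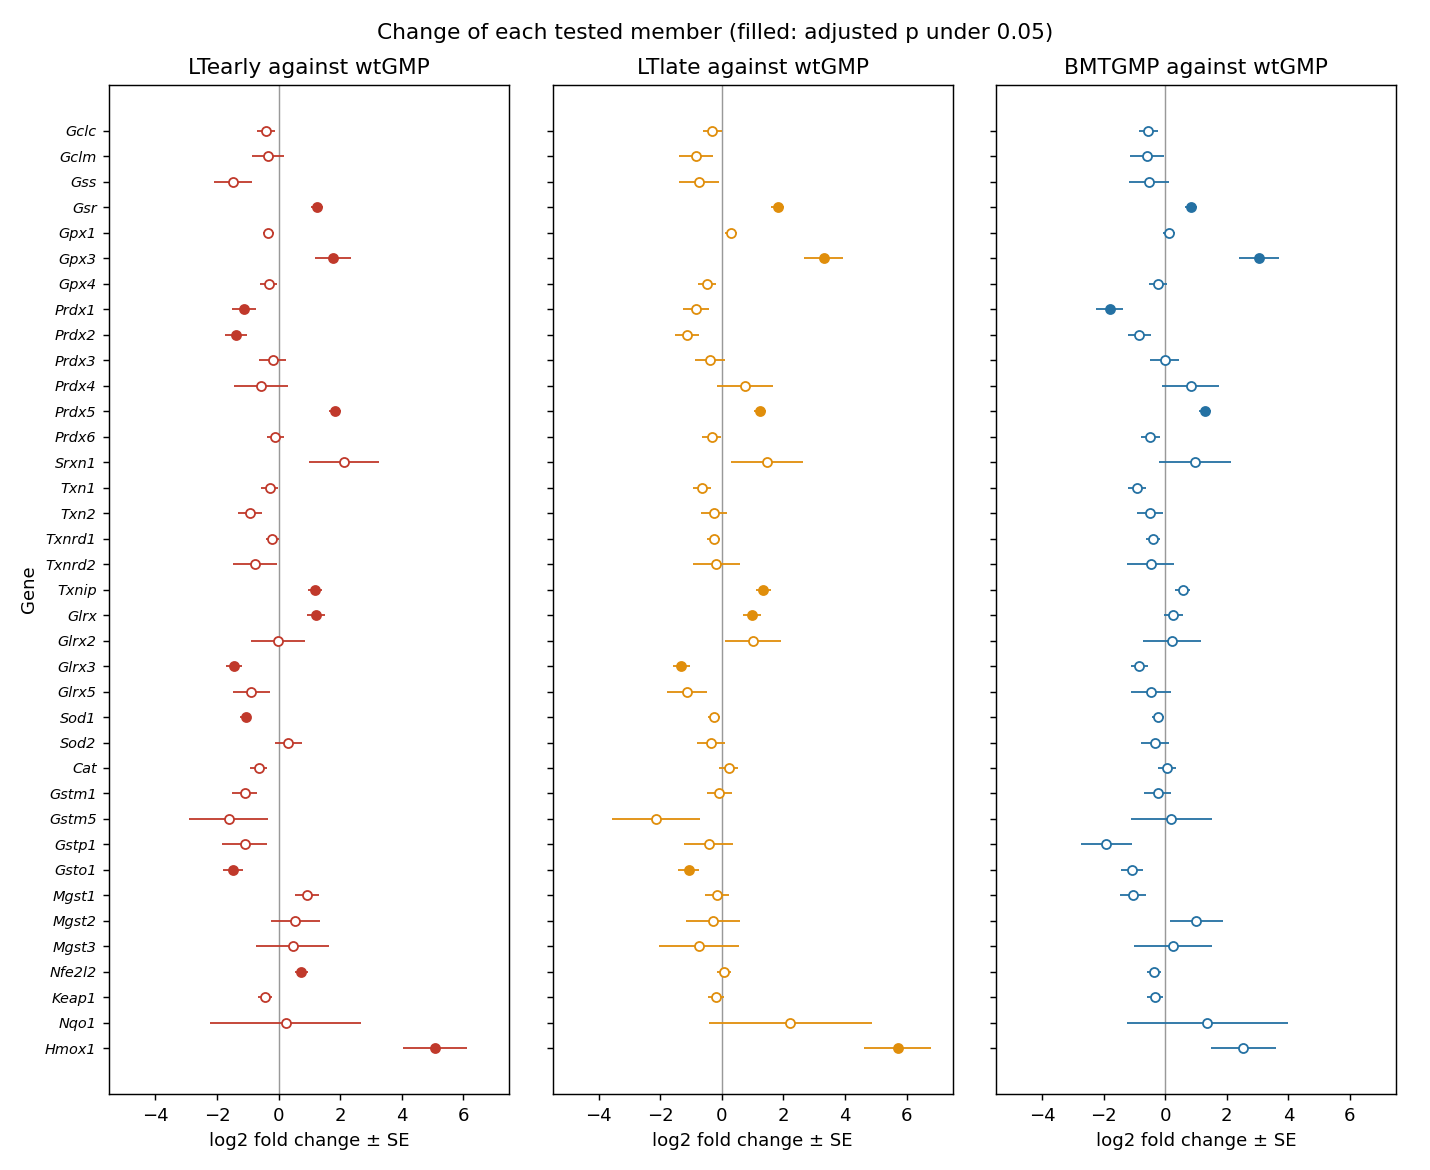
Log2 fold change ± SE of the 37 tested members in LTearly, LTlate and BMTGMP against the same wtGMP libraries, with filled points where the adjusted p was under 0.05. Filled points number 12, 8 and 4 in that order, and Gsr, Gpx3 and Prdx5 are filled and to the right of 0 in all 3 panels. Filled or open, 8 members lie to the right of 0 in all 3 panels and 19 to the left.

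Between the MLL-AF9 groups few members differed. In LTearly against BMTGMP, Nfe2l2 and Mgst1 were higher and Sod1 lower, 3 of 37 members beside 6.2% of all genes tested (3.39% higher and 2.8% lower). LTlate against BMTGMP gave 1 call, Gsr (0.97 ± 0.22, adjusted p = 0.0119), beside 1.98% of all genes (1.52% higher), and it was lost under 4 of 16 alternatives, among them leaving out LTlate replicate 2 or BMTGMP replicate 1 or 4 (adjusted p = 0.055 to 0.0829). Between LTearly and LTlate edgeR called 0 members, beside 0.206% of all genes, and DESeq2 called 1, Sod1 (adjusted p = 0.0117). Without LTearly replicate 4, 4 members were lower in LTearly than in LTlate: Gstm1 (adjusted p = 0.00325), Cat (0.00942), Gpx1 (0.0178) and Sod1 (0.0194). In that fit 198 genes were called in all, against 30 with every library. Against BMTGMP 4 members were lower without replicate 4, with 1270 genes called in place of 902. Replicate 4 held 663 CPM of Gpx1, 79.4 of Cat and 409 of Gstm1, values within the LTlate range, but 171 of Sod1, below its LTlate range of 232 to 271. Without BMTGMP replicate 2, LTearly also exceeded BMTGMP in Gsr (adjusted p = 0.0111) and Prdx5 (adjusted p = 0.0102).

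Other genes of the same pathways, 91 that are not members, were read from the same fit, and 75 of 90 found in the table were tested. In LTearly 13 rose and 6 fell (20.1% of all genes were called), in LTlate 7 rose and 2 fell (10.8%), and in BMTGMP 4 rose and 4 fell (6.56%). The group of NRF2 partners and further targets held 5 rises and 0 falls in LTearly among 18 tested, 4 and 0 in LTlate, then 1 and 0 in BMTGMP, where 11.2%, 7.5% and 4.4% of all genes were called higher. Bach1, the haem-sensing repressor that competes with NRF2, went from 55.4 ± 8.93 CPM in wtGMP to 140 ± 21.7 in LTearly (1.33 ± 0.20, adjusted p = 2.09e-05) and 122 ± 22.6 in LTlate (1.14 ± 0.21, adjusted p = 0.000459). Its neighbour in that group, the erythroid and megakaryocytic factor gene Nfe2, rose from 127 ± 22.2 CPM in wtGMP to 216 ± 16.6 in LTearly (adjusted p = 0.00411) and 250 ± 25 in LTlate (0.97 ± 0.20, adjusted p = 0.00138).

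NADPH feeds both cycles. Of its 9 supply genes tested, 4 rose and 2 fell in LTearly, 1 rose and 1 fell in LTlate, and 0 rose and 1 fell in BMTGMP, beside 20.1%, 10.8% and 6.56% of all genes called. Pgd, an enzyme of the pentose phosphate pathway, rose from 120 ± 19.3 CPM in wtGMP to 227 ± 24.6 in LTearly (0.92 ± 0.17, adjusted p = 0.000304) and 256 ± 54 in LTlate (1.09 ± 0.19, adjusted p = 0.000159). Idh2, the mitochondrial isocitrate dehydrogenase that yields NADPH, averaged 249 ± 41.2 CPM in wtGMP, against 37.6 ± 17 in LTearly, 62.2 ± 8.56 in LTlate, then 94.3 ± 14.3 in BMTGMP. It fell in all 3 groups (adjusted p = 1.68e-08, 9.5e-06 and 0.000951), with a log2 change of -2.71 ± 0.26 in LTearly and -1.40 ± 0.27 in BMTGMP, and no library overlapped wtGMP.

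Park7, the redox-sensitive chaperone DJ-1, also fell in all 3 groups, from 101 ± 23.8 CPM to 29.1 ± 3.86, 40.8 ± 13.9 and 48.4 ± 18.8 in LTearly, LTlate and BMTGMP. Msrb1, which repairs oxidized methionine, averaged 47.6 ± 14.2 CPM in wtGMP and rose in LTearly (149 ± 70.8, adjusted p = 0.000295), LTlate (129 ± 33.9, adjusted p = 0.00286) and BMTGMP (97.8 ± 17.2, adjusted p = 0.0438). The efflux pump gene Abcc5 rose from 35.3 ± 6.35 CPM to 95.8 ± 14.6 in LTearly and 65.7 ± 15.7 in BMTGMP, and averaged 54.5 ± 17 in LTlate (adjusted p = 0.136). The glyoxalase gene Glo1 fell in LTearly (29.4 ± 9.76 to 10.6 ± 6 CPM, adjusted p = 0.0188), a call lost without wtGMP replicate 1 or LTearly replicate 2 or 3 (adjusted p = 0.0534 to 0.0667). In BMTGMP the transferase gene Gstm2 rose from 2.32 ± 1.34 to 33.1 ± 12.6 CPM (adjusted p = 0.000823) and the disulfide isomerase gene Txndc5 fell from 74.3 ± 8.55 to 15.9 ± 11.5 (adjusted p = 0.000184). The BMTGMP calls of Park7, Msrb1 and Abcc5 ended under 5, 8 and 8 of 17 alternatives in that order, and leaving out single wtGMP or BMTGMP libraries gave adjusted p values up to 0.176, 0.175 and 0.249.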

How the data were processed

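The submitters deposited 1 table of reads on 28847 RefSeq mRNA transcripts (mm9, up to 100 hits kept per read, per the file headers). The submitters' processing notes list Bowtie 0.9.9.1. The deposited values are expected counts: 13.75% were not whole (tolerance 1e-06), as when a read with several hits is divided. How hits were divided, and whether strand was used, is not given in the sources used here. Of 16 columns, 15 match a sample and 1 was not used. Symbols were found for 26092 transcripts (25977 in a RefSeq gene table, 115 in GENCODE metadata, both GRCm38), and transcripts without one held 3.51% to 4.16% of a library. For each gene only the transcript of largest mean count was kept, and its values were rounded. Of 91 pairs of libraries 0 had identical counts.

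The 14 libraries entered 1 fit with a mean per group: edgeR 4.0.16 (R 4.3.3), TMM scaling, filterByExpr (14553 genes kept) and the robust quasi-likelihood test, 2-sided, with Benjamini-Hochberg adjustment over all genes tested. The common biological coefficient of variation was 0.748. SE was taken as the size of the log2 change divided by √F. Levels per kb use GENCODE M21 transcript lengths. The fit was tested on simulated data. Called members whose higher group averaged 5 CPM or more are given by library, and up to 3 rises and 3 falls of smallest p per comparison with wtGMP were named among related genes. Gpx1, Cat, Gstm1, Gss, Srxn1, Sod2 and Gpx7 were given by library after their values were seen. Members and lists were chosen with earlier results of these data known. Alternatives were DESeq2 1.42.0, median-ratio factors, other filters, the replicate block, summed transcripts, only the 2 groups compared, the library in no group added to either LT group, thinning, and each library left out. In comparisons that involve LTearly, the counts of alternatives include a fit with LTearly replicates 1 and 2 only, chosen after seeing the data.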

Additional observations from a re-analysis of the deposited data

Results flagged for a closer look

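In groups of 4 libraries the highest or lowest value was set against the rest. Of the 78 groups of members tested, 10 held a library that stood apart, where chance gives about 1 in 20 for normally distributed values. The CPM were not transformed and may be skewed, so the 10 are not read as an excess. Nor does that rate apply at the floor: 2 of the 78 groups were at 0 throughout, and 3 of the 10 had 3 libraries at 0 and 1 above. In LTearly replicate 1 these were Nfe2l2 at 273 CPM, Srxn1 at 54.3, Gss at 15.2 and Nqo1 at 2.2, each the highest of its group. In LTearly replicate 3 they were Mgst3 at 16.1 and Aldh1a1 at 4.4, again the highest. Glrx5 was lowest in LTearly replicate 2 at 1.86 CPM. In wtGMP, Prdx1 was highest in replicate 4 at 96.3 CPM, and Gpx7 and Nqo1 were each at 1.97 in replicate 2 and at 0 in the other 3. The causes were not tested.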

How the results depend on the processing

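None of the 45 called differences of named genes changed sign, while 61 of the 194 uncalled ones did under some alternative. Replicate numbers did not pair the samples (same-number correlations of deviations -0.103 to 0.182; 0.202 and -0.02 for the LTearly and LTlate libraries that share a title code), and with a replicate block 6 members rose and 7 fell in LTearly against wtGMP, 5 and 2 in LTlate, and 3 and 1 in BMTGMP. In LTlate against wtGMP 1 member fell with a filter of 1 CPM in 3 libraries, 1 with transcripts summed and 4 with only the 2 groups compared, where 2483 genes were called in place of 1567. In BMTGMP against wtGMP 5 fell by DESeq2 (1454 genes in place of 954) and 3 with only the 2 groups. Between LTearly and LTlate 1 member was lower by DESeq2, with no filter, with the 1 CPM filter, with the library in no group as LTearly and when thinned. With LTearly replicates 1 and 2 only, chosen after seeing the data, 4 were lower there. All genes called, 30 as reported, were then 266 (DESeq2), 141 (no filter), 52 (1 CPM filter), 86 and 0 (library in no group as LTearly or LTlate) and 174 (replicates 1 and 2 only). Between LTearly and BMTGMP 5 were higher by DESeq2 and 1 when thinned, and 0 were lower with only the 2 groups and 4 with replicates 1 and 2 only. All genes, 902 as reported, were 1525 by DESeq2 and 407 with only the 2 groups. Between LTlate and BMTGMP 2 were higher by DESeq2, with 582 genes called, and 454 with only the 2 groups in place of 288. The causes were not tested.

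Leaving out 1 library gave 5 to 7 rises, 4 to 7 falls and 2339 to 3183 genes called in LTearly against wtGMP, 5 to 6, 1 to 2 and 917 to 1334 in LTlate, and 2 to 3, 1 to 3 and 687 to 887 in BMTGMP. It gave 0 higher, 0 to 4 lower and 4 to 198 genes between LTearly and LTlate, 2 to 4, 0 to 4 and 581 to 1270 between LTearly and BMTGMP, and 0 to 1, 0 and 155 to 311 between LTlate and BMTGMP. Over single genes, 729 called values kept their call and 74 lost it, while 3316 uncalled values stayed so and 55 gained one.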

Other observations

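The library that was kept out of all groups, titled LTearly with a column named LTlate, had 30 of the 39 members within the LTearly range, 6 above it and 3 below. Of the same members 14 lay within the LTlate range, 10 above and 15 below, 19 within that of BMTGMP (9 above, 11 below) and 18 within that of wtGMP (8 above, 13 below). It held 184 CPM of Nfe2l2, 39.6 of Mgst1, 557 of Prdx5, 121 of Sod1 and 16.2 of Hmox1, all within the LTearly range. Above that range were Gsr at 963 CPM, Txnip at 271, Glrx3 at 66.3, Txn2 at 24.4, Gstp1 at 11 and Gstm5 at 4.75, and below it Gclc at 24.5, Txn1 at 40.1 and Glrx5 at 0.924. The ranges come from 3 or 4 libraries, so they differ in width.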
